A study of Mus musculus with 9 samples.

Results

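The proteasome subunit genes were defined as every gene in the count table with a symbol of the form Psma, Psmb, Psmc or Psmd followed by a number, leaving out the inducible subunits Psmb8, Psmb9 and Psmb10. This gave 36 of 24421 genes, of which 16 belong to the core particle (8 Psma, 8 Psmb) and 20 to the regulatory particle (6 Psmc, 14 Psmd). They were measured by poly(A) RNA-seq in 9 libraries of 4T1 cells, a transplantable mammary carcinoma line from BALB/c mice, in 3 conditions with 3 libraries each. All cells were kept for 5 days in RPMI medium with 10% FBS. The conditions were 3D spheroids grown on soft agar without added palmitate (3D), 3D spheroids with 75 µM palmitate added (3D with palmitate), and 2D monolayers with 75 µM palmitate added (2D with palmitate). By the paper's methods palmitate was coupled to BSA, and cultures without added fatty acid got BSA and ethanol alone. The study asked how cells in 3D differ from cells in 2D when palmitate is supplied, and how added palmitate acts in 3D. Monolayers grown without added palmitate were not analysed here, so palmitate alone was compared only within 3D. The labels do not say whether the 3 libraries of a condition came from separate cultures, so p-values measure the spread between these libraries, which may be technical.

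The proteasome is the main protease for ubiquitin-tagged proteins in the cytosol and nucleus. Its core particle is a barrel of outer alpha rings (Psma), which gate the entry, and inner beta rings (Psmb), 3 kinds of which cut peptide bonds. The regulatory particle caps the barrel: a ring of ATPases (Psmc) unfolds the substrate, and the non-ATPase subunits (Psmd) hold the ubiquitin receptors, the deubiquitinase, scaffold and lid proteins, and some assembly factors. Subunit genes are scattered over the genome and are known to be transcribed together, in part through NRF1 (Nfe2l1), which binds antioxidant response elements. Here the 36 genes lay on 16 chromosomes, with the most, 6, on chromosome 11 (GENCODE annotation of GRCm38).

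Because NRF1 acts through such elements, the element's core, TGACNNNGC on either strand, was searched for in the window from 250 bases before to 50 bases after each RefSeq start (build GRCm38.p6). RefSeq gave 31 windows of 29 subunit genes. The letters occurred in 5 windows, 1 in each of 5 genes (16.1%), against 12.4% of 32851 windows of all genes. The CCAAT box, also on either strand, was found in 12 of the 31 (38.7%, against 37.4% of all windows), and the palindrome TGACGTCA in 0 (against 1.79%). The element's core and the CCAAT box can share an end base, and each motif was counted on its own. A match describes the letters and not a bound site. The 5 stretches with the element's core are shown 5′ to 3′ along each gene's strand, because both their genes' levels and those of NRF1 are given below. Capitals mark the match, which lies on the other strand in Psmc6 and Psmd12.
Psmb5: cgtgaagttgTGACGTCGCggcgttgcca
Psmb6: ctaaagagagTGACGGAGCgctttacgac
Psmc6: ccagccagtaGCTAAGTCAggcattgctc
Psmd9: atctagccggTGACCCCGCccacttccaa
Psmd12: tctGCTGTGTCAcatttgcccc
The windows were chr14:54617946-54618245 on the minus strand for Psmb5, chr11:70525107-70525406 on the plus strand for Psmb6 and chr14:45329574-45329873 on the plus strand for Psmc6. Those of Psmd9 and Psmd12 were chr5:123227940-123228239 and chr11:107479278-107479577, both on the plus strand. With the start counted as 0, the middle base of the match stood at -43 in Psmb5, -5 in Psmb6, -27 in Psmd9, -223 in Psmc6 and -243 in Psmd12.

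Total counts per library ranged from 6595514 (replicate 3 of 3D with palmitate) to 31177756, and the ribosomal precursor Rn45s took 1.77% to 5.38% of them. Levels are given as CPM, a gene's reads scaled to 1 common library total after TMM normalization. All 5 markers of epithelial carcinoma cells were detected, with a summed level of 3080 to 3295 CPM in 2D with palmitate and 4396 to 4530 CPM in the 6 libraries of 3D. Endothelial markers summed to at most 0.579 CPM. Of the 4 immune and the 4 fibroblast markers, 1 each passed the filter on low counts. The immune sum was 24.4 to 28.1 CPM in 2D and 6.94 to 11.5 CPM in 3D, mostly from Cd68, and the fibroblast sum 29.6 to 31.2 CPM in 2D and 90.7 to 110 CPM in 3D, nearly all from Pdgfra. Their part in the results was not tested. In bulk RNA, fewer cells of a type and less RNA per cell cannot be told apart.

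Of the 36 genes, 34 passed the filter on low counts and were tested, each with 138 to 14468 counts in every library. The other two are subunits of particular tissues. Psma8, an alpha subunit of the testis, had 0 counts in all 9 libraries, and Psmb11, the beta subunit of the thymic cortex, had between 0 and 6. Per kilobase of the annotated transcript, the mean level of the core genes in 3D with palmitate ran from 29.8 CPM per kb (Psma3) to 228 CPM per kb (Psma7), with a median of 112. That of the regulatory genes ran from 13.8 (Psmd9) to 137 CPM per kb (Psmd7), with a median of 91.1. These levels depend on which transcript is taken as the gene's length.

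The subunit genes were lower in 3D than in 2D, both with palmitate. The summed level of the core genes was 2607, 2464 and 2676 CPM in replicates 1 to 3 of 2D with palmitate, 1761, 1716 and 1686 CPM in 3D, and 1869, 1828 and 1750 CPM in 3D with palmitate. That of the regulatory genes was 4515, 4431 and 4564 CPM in 2D with palmitate, 3104, 3127 and 3115 CPM in 3D, and 3329, 3332 and 3396 CPM in 3D with palmitate. Every 2D library stood above every 3D library in both sums. From 2D to 3D with palmitate, the mean of the core sum fell by 29.7% and that of the regulatory sum by 25.6%. The ratio of the regulatory sum to the core sum was 1.75 ± 0.0480 in 2D with palmitate, 1.81 ± 0.0438 in 3D and 1.85 ± 0.0828 in 3D with palmitate (SD, n = 3 each), and its ranges overlapped. Together the 36 genes took 0.709% ± 0.0210 of all counts in 2D with palmitate, 0.487% ± 0.00965 in 3D and 0.512% ± 0.00895 in 3D with palmitate (SD, n = 3 each).

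**Figure D1:**
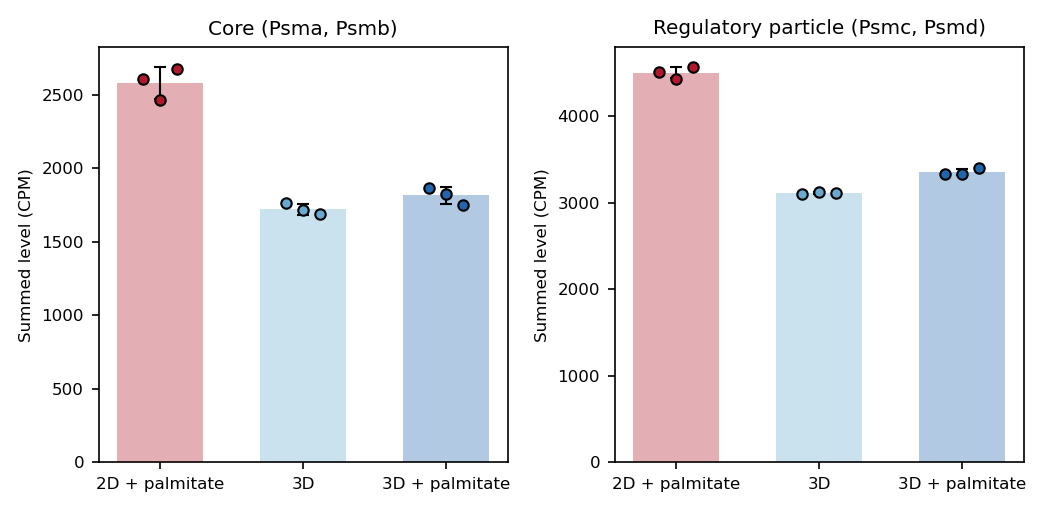
Summed level (CPM) of the core genes (left) and the regulatory particle genes (right) in the 3 conditions. Bars are means, error bars SD over 3 libraries and points single libraries; the core means are 2582 CPM in 2D with palmitate, 1721 CPM in 3D and 1816 CPM in 3D with palmitate, and the regulatory means 4503, 3115 and 3353 CPM.

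By the quasi-likelihood test of edgeR, adjusted after Benjamini and Hochberg over 12575 genes, 29 of the 34 tested subunit genes fell in 3D with palmitate against 2D with palmitate, 1 rose and 4 were not called at an adjusted p under 0.05. Over all tested genes, 33.9% were called lower and 34.5% higher, so that 68.3% were called in either direction against 88.2% of the subunit genes. Of the core genes 13 of 14 fell and 0 rose. Of the regulatory genes 16 of 20 fell and 1 rose. The 3 libraries of 3D with palmitate lay below the 3 of 2D without overlap for 31 of the 34 genes, against 34.8% of all genes, and above them for 1, against 34.6%. The median log2 fold change was -0.44 over the subunit genes and 0.01 over all genes. It was -0.55 for the core and -0.38 for the regulatory particle, and within these -0.63 for Psma, -0.52 for Psmb, -0.56 for Psmc and -0.33 for Psmd. In the order of mean levels, 30 of the 34 were highest in 2D with palmitate and lowest in 3D, a share not counted over all genes. None of the 34 was called between 3D with palmitate and 3D.

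**Figure D2:**
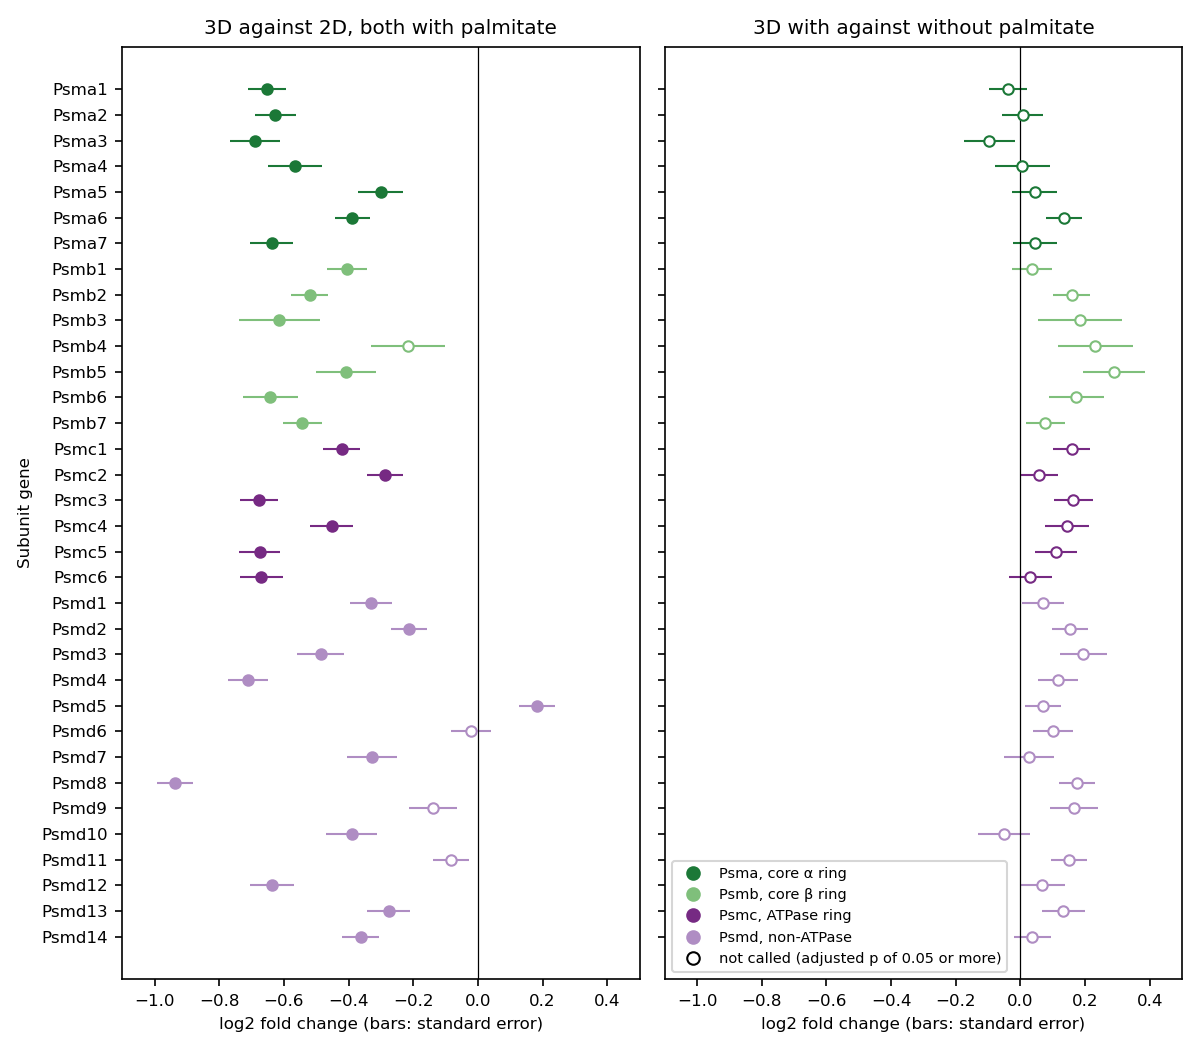
log2 fold changes of the 34 tested subunit genes in 3D with palmitate against 2D with palmitate (left) and against 3D (right), with standard errors as bars and filled points for an adjusted p under 0.05. On the left 29 points are filled below 0 and Psmd5 (0.18) is filled above it; on the right 31 points lie above 0 and none is filled.

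All 7 tested alpha ring genes fell, against 33.9% of all genes called lower. The largest change was that of Psma3. Its level was 139, 131 and 137 CPM in 2D with palmitate, 94.2, 89.9 and 85.4 CPM in 3D, and 75.5, 84.5 and 94.8 CPM in 3D with palmitate. The 2D libraries stood apart from all 3D libraries, while the 3D with palmitate libraries spread past both ends of the 3D range. The log2 fold change from 2D to 3D with palmitate was -0.69 ± 0.08 (SE; adjusted p = 2.02e-06), a fall by 38.0%. Psma1 (-0.65), Psma7 (-0.64), Psma2 (-0.63) and Psma4 (-0.57) were close to it. Psma7, the core gene with the highest level per kilobase, was at 324 ± 18.8 CPM in 2D with palmitate and 208 ± 13.4 CPM in 3D with palmitate (SD, n = 3).

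The smallest fall in the alpha ring was that of Psma5. It measured 107, 103 and 105 CPM in 2D with palmitate, 86.7, 81.9 and 78.6 CPM in 3D, and 87.8, 89.3 and 76.4 CPM in 3D with palmitate. Even here no 3D library reached the 2D libraries. Its log2 fold change was -0.30 ± 0.07 (adjusted p = 0.00138), and with each library's trend against GC content and transcript length removed it was -0.11 (adjusted p = 0.0775). Near-identical sequence of 2 pseudogenes covers 76.5% of its transcript, so its counts are less certain. The same holds for Psmc1 (82.0% of the transcript), Psmb3 (80.7%) and Psma4 (66.9%). Counts of Psmd11 (52.7%) and Psma3 (34.4%) are also less certain, but only 1 of 2 and 4 of 13 matching genes are pseudogenes. Psma6, the remaining alpha gene, fell by 0.39 on the log2 scale.

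In the beta rings 6 of 7 tested genes fell, against 33.9% of all genes called lower, among them all 3 that carry the active sites. Psmb6, the caspase-like subunit, measured 171, 158 and 176 CPM in 2D with palmitate, 101, 95.9 and 90.0 CPM in 3D, and 117, 113 and 91.1 CPM in 3D with palmitate. The 2D libraries were well above all others. Its log2 fold change of -0.64 ± 0.09 (adjusted p = 1.02e-05) was the largest of the beta genes. Psmb7, the trypsin-like subunit, measured 179, 167 and 175 CPM in 2D with palmitate, 113, 115 and 111 CPM in 3D, and 121, 113 and 123 CPM in 3D with palmitate. The 2D libraries stood apart while the 3D libraries with and without palmitate overlapped, and the log2 fold change was -0.54 ± 0.06 (adjusted p = 1.73e-06). The transcript of Psmb7 overlaps that of Nek6 on the opposite strand over 405 bases (34.9% of it), and the strand setting of the counting is not given in the sources used here.

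Psmb5, the chymotrypsin-like subunit and the main target of proteasome inhibitor drugs, had the lowest level per kilobase of the tested beta genes, 33.5 CPM per kb in 3D with palmitate. It measured 39.7, 39.7 and 42.9 CPM in 2D with palmitate, 27.5, 22.9 and 24.8 CPM in 3D, and 33.5, 31.1 and 25.7 CPM in 3D with palmitate. The 2D libraries were again the highest. Its log2 fold change was -0.41 ± 0.09 (adjusted p = 0.00134), and -0.14 (adjusted p = 0.0626) without the GC and length trends. Near-identical sequence elsewhere in the genome covers 88.4% of its transcript. Thus all 3 catalytic genes fell, Psmb5 with the call lost under that correction.

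Psmb4, a structural beta subunit, was the core gene that was not called. It measured 247, 242 and 287 CPM in 2D with palmitate, 189, 192 and 188 CPM in 3D, and 262, 230 and 171 CPM in 3D with palmitate. Replicate 1 of 3D with palmitate stood within the 2D range and replicate 3 below the 3D range. The log2 fold change was -0.22 ± 0.12 (adjusted p = 0.109), and without that replicate 1 it was -0.36 (adjusted p = 0.00409). It was also called with no filter on low counts (-0.24, adjusted p = 0.00394). Psmb1 measured 279, 251 and 274 CPM in 2D with palmitate, 206, 193 and 193 CPM in 3D, and 200, 207 and 199 CPM in 3D with palmitate. It fell by 0.40 on the log2 scale, with no 3D library near the 2D values. Psmb2 (-0.52) and Psmb3 (-0.61) also fell, the latter with the widest spread of any subunit gene, a coefficient of variation of 23.7% in 3D with palmitate.

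All 6 ATPase genes fell, against 33.9% of all genes called lower. For each, all libraries of 3D with palmitate lay below all of 2D, against 34.8% of all genes. The 3D libraries without palmitate also lay below 2D, a share not counted over all genes. Psmc3 changed most. It measured 269, 259 and 271 CPM in 2D with palmitate, 145, 154 and 147 CPM in 3D, and 170, 170 and 159 CPM in 3D with palmitate. The 3 conditions did not overlap. The log2 fold change from 2D to 3D with palmitate was -0.68 ± 0.06 (adjusted p = 1.42e-07), a fall by 37.5%.

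Psmc5 (-0.67) and Psmc6 (-0.67) differed from Psmc3 by less than the standard error. Psmc6 measured 319, 299 and 303 CPM in 2D with palmitate, 193, 190 and 184 CPM in 3D, and 177, 193 and 209 CPM in 3D with palmitate. Its 3D libraries overlapped each other and stayed below all of 2D. Psmc4 (-0.45) and Psmc1 (-0.42) lay between these and Psmc2. Psmc2 measured 291, 277 and 296 CPM in 2D with palmitate, 226, 228 and 224 CPM in 3D, and 237, 239 and 231 CPM in 3D with palmitate. This was the smallest fall of the ring, -0.29 ± 0.06 (adjusted p = 0.00035).

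The non-ATPase genes varied the most, from the largest fall of all subunit genes to the single rise. Psmd8, a lid subunit, measured 253, 254 and 258 CPM in 2D with palmitate, 116, 117 and 120 CPM in 3D, and 133, 132 and 135 CPM in 3D with palmitate. The 3 conditions were far apart beside a spread of a few CPM. Its log2 fold change was -0.94 ± 0.06 (adjusted p = 2.42e-09), a fall by 47.8%. The lid gene Psmd12 fell by 0.64 and the lid gene Psmd3 by 0.49 on the log2 scale. Psmd3 measured 296, 296 and 292 CPM in 2D with palmitate, 179, 191 and 182 CPM in 3D, and 233, 207 and 188 CPM in 3D with palmitate.

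The ubiquitin receptors and the deubiquitinase of the regulatory particle fell. Psmd4, a receptor that binds ubiquitin chains, measured 273, 273 and 295 CPM in 2D with palmitate, 160, 159 and 155 CPM in 3D, and 180, 169 and 164 CPM in 3D with palmitate. The conditions did not overlap, and the log2 fold change was -0.71 ± 0.06 (adjusted p = 1.24e-07). Psmd2, a scaffold that receives ubiquitin and shuttle proteins, measured 399, 417 and 403 CPM in 2D with palmitate, 304, 320 and 323 CPM in 3D, and 354, 345 and 353 CPM in 3D with palmitate. Its groups were also apart, but the change was smaller, -0.21 ± 0.06 (adjusted p = 0.00363). A pseudogene is near-identical over 98.2% of its transcript.

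Psmd14, the metalloprotease that removes ubiquitin from the substrate, measured 185, 188 and 185 CPM in 2D with palmitate, 143, 138 and 142 CPM in 3D, and 139, 151 and 144 CPM in 3D with palmitate. The 3D libraries with and without palmitate overlapped, and all were below 2D. The log2 fold change was -0.36 ± 0.06 (adjusted p = 6.12e-05). Its structural partner Psmd7 fell by 0.33 and the scaffold Psmd1 by 0.33 on the log2 scale. Psmd13 (-0.28), a lid gene whose transcript overlaps Sirt3 on the opposite strand over 342 bases, fell too.

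The 3 genes whose products act as chaperones in the assembly of the ATPase ring did not move together. Psmd5 measured 89.8, 89.6 and 92.9 CPM in 2D with palmitate, 96.9, 98.1 and 99.5 CPM in 3D, and 103, 102 and 104 CPM in 3D with palmitate. It was the only tested subunit gene with its highest mean in 3D with palmitate, and all 3D libraries were above all of 2D. The log2 fold change was 0.18 ± 0.06 (adjusted p = 0.00954), a rise of 13.6%, but -0.02 (adjusted p = 0.807) without the GC and length trends, and 0.16 (adjusted p = 0.0857) with no filter on low counts.

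Psmd10 (gankyrin) measured 29.7, 26.8 and 27.1 CPM in 2D with palmitate, 22.9, 21.3 and 21.5 CPM in 3D, and 20.4, 22.2 and 21.1 CPM in 3D with palmitate. It fell (log2 fold change -0.39 ± 0.08, adjusted p = 0.000515). Psmd9 measured 39.0, 40.0 and 40.6 CPM in 2D with palmitate, 30.8, 34.1 and 32.1 CPM in 3D, and 36.8, 38.3 and 32.6 CPM in 3D with palmitate. The 2D libraries of Psmd9 were the highest, but its log2 fold change of -0.14 ± 0.07 did not pass the test (adjusted p = 0.109). Without the GC and length trends it was -0.15 (adjusted p = 0.0464), a call that was lost with the replicate number added as a block.

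Besides Psmd9, the lid genes Psmd6 and Psmd11 were not called, and they are named here after their values were seen. Psmd6 measured 114, 121 and 121 CPM in 2D with palmitate, 114, 107 and 108 CPM in 3D, and 120, 120 and 111 CPM in 3D with palmitate. The conditions overlapped and the log2 fold change was -0.02 ± 0.06 (adjusted p = 0.773). Without the GC and length trends it was 0.16 (adjusted p = 0.00618). Psmd11 measured 138, 139 and 138 CPM in 2D with palmitate, 120, 115 and 118 CPM in 3D, and 132, 131 and 130 CPM in 3D with palmitate. Its groups did not overlap, but the log2 fold change of -0.08 ± 0.06 did not pass the test (adjusted p = 0.197).

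**Figure D3:**
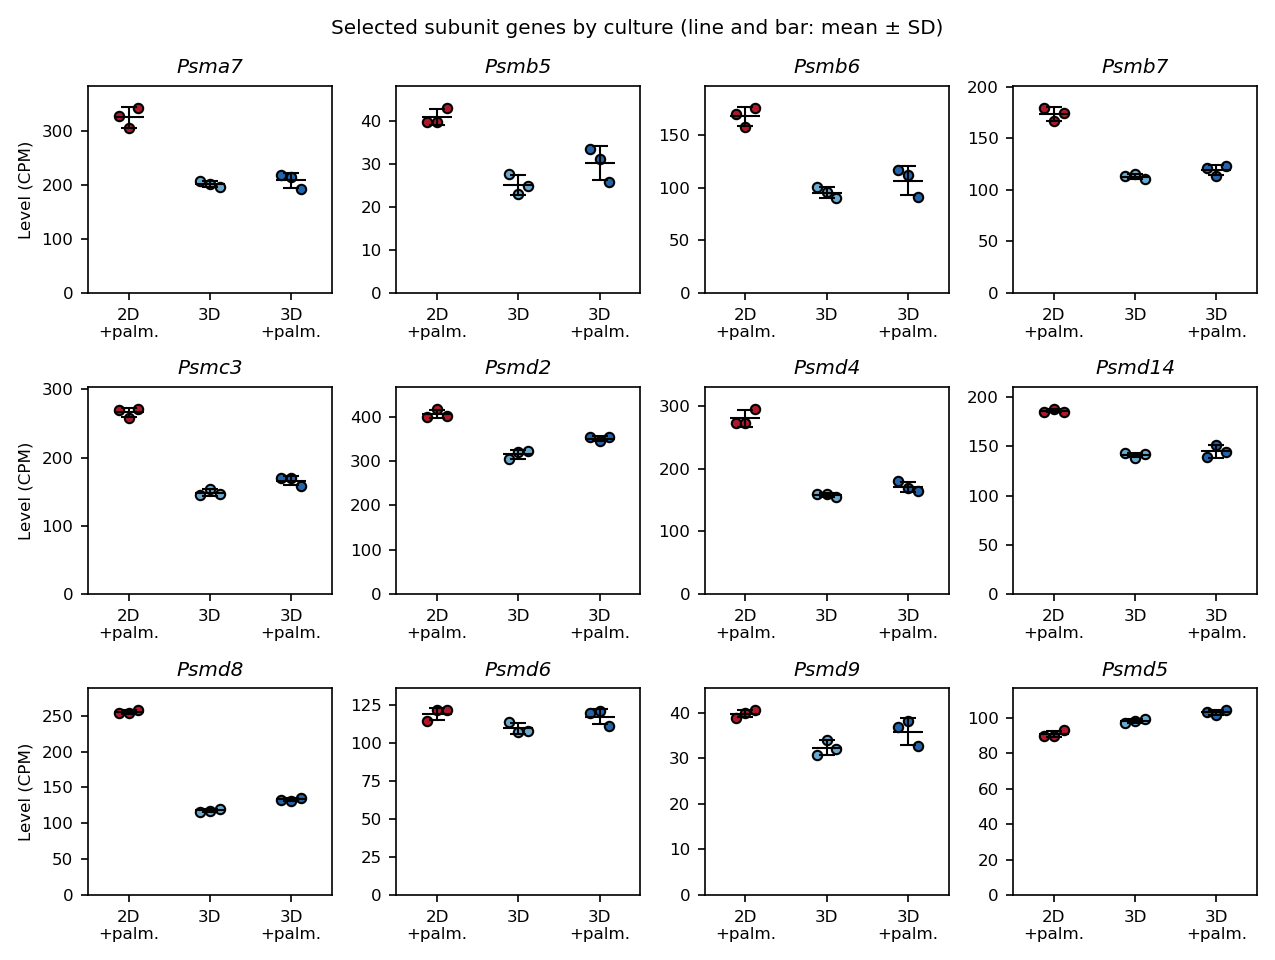
Level (CPM, axes from 0) of 12 subunit genes in every library of 2D with palmitate, 3D and 3D with palmitate, with the mean and SD of 3 libraries. The 2D libraries are the highest for most genes, as for Psmd8 (253 to 258 CPM against 116 to 135 CPM in 3D), while Psmd6 overlaps and Psmd5 is lowest in 2D.

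Subunit transcripts are short, with a median length of 1541 bases against 2965 bases for all tested genes, and their median GC content was 49.3% against 50.4%. With each library's trend against GC content and transcript length removed, 29 were still called lower and 1 higher, but with smaller changes. In that fit 71% of all genes were called in either direction, against 68.3% without the correction. The median log2 fold change was then -0.31 for the core and -0.28 for the regulatory particle, against -0.07 over all genes, and the difference between the particles narrowed. Calls were made against 0 and not against that median of all genes. Psma5, Psmb5 and Psmb4 were then not called, Psmd9 and Psmd11 were called lower, and the single gene called higher was Psmd6 in place of Psmd5. With the replicate number as a block in the same fit 27 were lower, the calls of Psmd9 and Psmd11 being lost. The largest changes under this correction were those of Psmd8 (-0.80), Psma3 (-0.69), Psma2 (-0.64) and Psmc6 (-0.62).

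**Figure D4:**
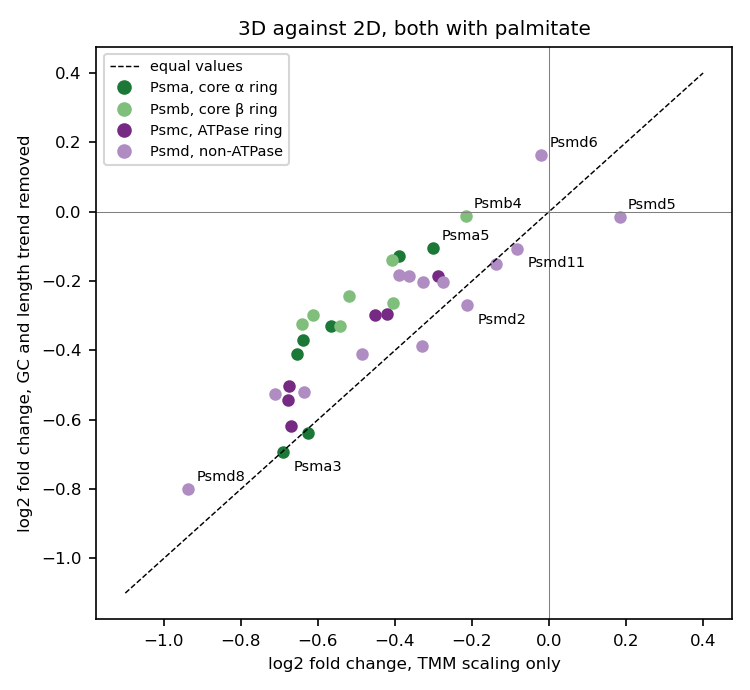
log2 fold change of the 34 tested subunit genes in 3D with palmitate against 2D with palmitate, with TMM scaling only (x axis) and with the trends against GC content and transcript length removed (y axis). The dashed line marks equal values; most genes lie above it, Psmd8 moves from -0.94 to -0.80, Psmd5 from 0.18 to -0.02 and Psmd6 from -0.02 to 0.16.

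Added palmitate in 3D gave smaller differences, none of which passed the test. In 3D with palmitate against 3D, 0 of the 34 subunit genes were called by edgeR's quasi-likelihood test, against 2.19% of all genes (1.38% higher and 0.811% lower), and DESeq2 also called 0. At an unadjusted p under 0.05, 11 of the 34 passed (3 core, 8 regulatory), against 17.3% of all genes. The log2 fold change was above 0 for 31 of 34, against 52.2% of all genes, and its median was 0.11 over the subunit genes, 0.06 for the core and 0.11 for the regulatory particle, against 0.01 over all genes. In 12 genes (2 core, 10 regulatory) all libraries with palmitate were above all without, against 10.4% of all genes, and in 0 they were all below, against 8.19%. These values share the 3D with palmitate libraries with the comparison above, so the directions of the 2 comparisons are not independent of each other.

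The core genes ranged from -0.10 (Psma3) to 0.29 (Psmb5) with palmitate. Psmb5, with the values given above, was highest in replicates 1 and 2 of 3D with palmitate, while replicate 3 lay within the 3D range. Its log2 fold change was 0.29 ± 0.10 (adjusted p = 0.141). Psmb1 was the beta gene with the smallest difference (0.04). In the alpha ring the largest was that of Psma6. It measured 270, 271 and 274 CPM in 2D with palmitate, 193, 188 and 186 CPM in 3D, and 206, 210 and 207 CPM in 3D with palmitate. The 3 conditions did not overlap, and the log2 fold change with palmitate was 0.14 ± 0.05 (adjusted p = 0.219).

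Among the regulatory genes the log2 fold change with palmitate ran from -0.05 (Psmd10) to 0.19 ± 0.07 (Psmd3, adjusted p = 0.186). Psmd3 was highest in replicate 1 of 3D with palmitate, and replicate 3 lay within the 3D range. Psmc3 had the largest value of the ATPases (0.16 ± 0.06, adjusted p = 0.172) and Psmc6 the smallest (0.03). Psmd8 (0.18 ± 0.06, adjusted p = 0.119), Psmd4 (0.12) and Psmd2 (0.15) were each higher in all 3 libraries with palmitate and were not called. Psmd14 (0.04), Psmd5 (0.07) and Psmd9 (0.17) were not called either.

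Replicate 3 of 3D with palmitate, the library with the lowest total count, was the lowest of its group in 17 of the 34 genes and the highest in 12. Without it, 6 subunit genes were called higher with palmitate (Psmb4, Psmb5, Psmb6, Psmc3, Psmd3 and Psmd8), and the share of all genes called was 14.9%. On the log2 scale Psmb4 then rose by 0.38 (adjusted p = 0.00305). Psmb5 rose by 0.36 (adjusted p = 0.00973). With the GC and length trends removed and all libraries kept, Psmb5 (0.23, adjusted p = 0.0447) and Psmd11 (0.16, adjusted p = 0.0396) were called higher, with 8.18% of all genes called. Both calls were lost when the replicate number was added to that fit as a block.

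The 3 inducible subunits that the definition left out, which replace the catalytic subunits in the immunoproteasome, did not follow the standard ones in one direction. From 2D to 3D with palmitate, Psmb9 rose by 0.61 ± 0.13 (adjusted p = 0.000625) and Psmb8 by 0.25 ± 0.10 (adjusted p = 0.0328) on the log2 scale, while Psmb10 changed by -0.41 ± 0.11 (adjusted p = 0.00526). Psmb9 measured 5.38, 5.89 and 6.86 CPM in 2D with palmitate, 8.88, 7.88 and 7.43 CPM in 3D, and 9.72, 9.57 and 8.12 CPM in 3D with palmitate. Per kilobase it stood at 6.76 CPM per kb in 3D with palmitate, against 134 CPM per kb for Psmb6, whose place it takes. The call of Psmb8 was lost without replicate 1 or 2 of either group (adjusted p of 0.0774 and 0.103 without those of 3D with palmitate, 0.0875 and 0.126 without those of 2D), and with the Rn45s share as a covariate (adjusted p = 0.0812). With palmitate in 3D the values of the 3 genes were 0.21, 0.16 and 0.28 and none was called. Without replicate 3 of 3D with palmitate, Psmb10 was called at 0.37 (adjusted p = 0.0222), with 14.9% of all genes called.

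The factors that build and feed the proteasome were described from lists of 45 tested genes that are no members of the set above, the inducible subunits included. From 2D to 3D with palmitate, 13 of these rose, 25 fell and 7 were not called. Of all tested genes, 34.5% were called higher and 33.9% lower, and the counts of the single lists stand beside the same shares. All 5 core assembly chaperones fell, from -0.97 ± 0.11 (Psmg4) to -0.23 ± 0.08 (Pomp, adjusted p = 0.0166), the maturation factor of the beta rings. Pomp was not called without replicate 3 of 2D (adjusted p = 0.0900) or without the GC and length trends (-0.09). Of 8 proteasome-bound receptors, deubiquitinases and regulators 7 fell, led by the deubiquitinase Uchl5 (-1.21 ± 0.08, adjusted p = 1.02e-08), and the ubiquitin-binding protein Zfand5 rose (0.32), with -0.06 and no call once the GC and length trends were removed. Adrm1, 1 of the 7, then also lost its call (-0.15, adjusted p = 0.0870). Of 6 shuttle factors 4 fell, and the protease Ddi2, which cleaves NRF1 into its active form, rose (0.55, with no call without those trends).

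In the other lists the directions were mixed. Of 6 genes of the p97 complex, which extracts proteins for degradation, 3 rose and 1 fell, and 1 of the 3, Nploc4, was not called without the GC and length trends (0.12, adjusted p = 0.0630). Ngly1, the deglycosylase that also processes NRF1, rose by 1.62 ± 0.10 (adjusted p = 3.46e-09) and Nsfl1c changed by -0.48. Of the ubiquitin genes and activating enzymes 2 rose and 3 fell, with Rps27a, a fusion of ubiquitin and a ribosomal protein, at -0.92, and Ubb at 0.66 ± 0.53 without a call. Uba6, 1 of the 2 that rose, was at 0.12 (adjusted p = 0.0884) and not called without those trends. Ubb was called with no filter on low counts (0.64, adjusted p = 3.15e-05). It was also called without those trends when the replicate number was a block (0.83, adjusted p = 0.0434). Ubb varied from 7.09 to 45.2 CPM among the 3D libraries without palmitate alone. Of the activators and the inhibitor Psme4 rose (0.34, with -0.02 and no call without the GC and length trends), Psme1 (-0.53) and Psme3 fell, and Psme2 and Psmf1 were not called, but Psmf1 was at -0.22 (adjusted p = 0.0134) without those trends.

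NRF1 and its relative NRF2 (Nfe2l2), which binds the same elements, differed. Nfe2l1 measured 489, 481 and 455 CPM in 2D with palmitate, 503, 467 and 496 CPM in 3D, and 460, 475 and 513 CPM in 3D with palmitate. The conditions overlapped, and its log2 fold change from 2D to 3D with palmitate was 0.02 ± 0.06 (adjusted p = 0.767), against -0.23 (adjusted p = 0.00363) without the GC and length trends. Nfe2l2 measured 110, 111 and 106 CPM in 2D with palmitate, 243, 244 and 264 CPM in 3D, and 215, 230 and 290 CPM in 3D with palmitate. All 3D libraries were above all of 2D, and the change was 1.16 ± 0.09 on the log2 scale (adjusted p = 5.56e-08). Keap1, the adaptor that targets NRF2 for degradation, rose by 0.59, and the small Maf partners went in both directions, from -0.49 (Maff) to 0.30 (Mafg). The 5 subunit genes with the element's core letters in the windows printed above were called lower in 4 cases (Psmb5, Psmb6, Psmc6 and Psmd12), beside 29 of all 34 tested subunit genes and 33.9% of all genes, so nothing is read from the letters.

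With palmitate in 3D, 0 of the 45 listed genes were called, against 2.19% of all genes. At an unadjusted p under 0.05, 9 of the 45 passed, against 17.3% of all genes. The highest log2 fold changes of their lists were those of Ubb (0.39), the chaperone Psmg3 (0.29), Adrm1 (0.25 ± 0.07, adjusted p = 0.0695), a ubiquitin receptor of the proteasome, Mafk (0.24, adjusted p = 0.0943), Psmf1 (0.13), Nploc4 (0.12) and Rad23b (0.09). The lowest were those of Ngly1 (-0.21), Shfm1 (-0.17), the small lid protein now named Sem1, Psme4 (-0.10), Uba6 (-0.09), Nfe2l2 (-0.04), Ubqln2 (-0.02) and Pomp (0.01). Nfe2l1 was at -0.02. Without replicate 3 of 3D with palmitate 4 listed genes were called, with 14.9% of all genes called. These were Adrm1 (0.28, adjusted p = 0.00970), Psmg3 (0.40, adjusted p = 0.0141), Psmb10 (0.37, adjusted p = 0.0222) and Mafk (0.26, adjusted p = 0.0269). Without replicate 2 of 3D, in which Ubb was highest, Ubb was called at 1.76 (adjusted p = 0.0306).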

How the data were processed

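The authors sequenced poly(A) RNA as 50 bp single-end reads, cleaned them with fastq-mcf, inspected them with FastQC 0.11.9, aligned them to GRCm38 with HISAT2 2.1.0 and counted them per gene with HTSeq-count. They deposited raw counts, 1 column per library. The annotation release and strand setting are not given in the sources used here. Conditions were taken from the sample labels.

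The analysis ran edgeR 4.0.16 under R 4.3.3. filterByExpr dropped weakly counted genes, TMM scaled the libraries, and 1 quasi-likelihood fit, with condition as its only term, took all 9 libraries. A call needed a p-value under 0.05 after Benjamini-Hochberg adjustment over 12575 genes. Standard errors are the log2 change over the root of its F value. GC content and transcript length came from GENCODE M21, and their trends were removed through natural splines with 4 degrees of freedom. Promoter windows came from RefSeq. Near-identical means at least 95% identity to another transcript. Alternatives were RLE scaling, library size only, no filter, at least 10 counts in every library, the 2 groups alone, a replicate block, the Rn45s share as covariate, DESeq2 1.42.0, and each library left out. Libraries of one condition differed by more than sampling noise. The chi-square per gene was 16.4 to 19.7 in 3D with palmitate, 4.84 to 7.37 in 3D and 3.89 to 9.30 in 2D with palmitate. The fit shared its estimate of the spread over all conditions. The procedure was tested on data simulated with the spread that this fit had estimated. The outcome is not given here and is not used as support.

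The genes and lists were chosen with earlier results of these data known. Values per library are given for the catalytic subunits, the receptors and deubiquitinase, the assembly members, the genes with the highest and lowest change of each family, and those that did not pass the filter. Of the lists, the highest and lowest gene of each is named. One gene that this rule names is not reported here. Paaf1 was not analysed here.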

Additional observations from a re-analysis of the deposited data

How the results depend on the processing

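In 3D with palmitate against 2D with palmitate, the core genes called lower numbered 13 or 14 and the regulatory genes called lower 16 as each library was left out in turn, and with the replicate number as a block 29 subunit genes were lower and 1 higher. The replicate numbers showed no sign of pairing the libraries. Deviations of same-numbered libraries correlated at -0.24 to 0.15 over 9 pairs, and those of differently numbered ones at -0.17 to 0.28 over 18. With so few libraries these values cannot exclude pairing. Without a GC and length correction the block changed no call of a subunit gene. In 3D with palmitate against 3D, the block also gave 0 calls among the subunit genes. With no filter on low counts 0 regulatory genes were higher in the first comparison and 30 subunit genes lower. With the GC and length trends removed, 8 listed genes that are no members were higher there, also with the block, and with palmitate 1 core, 1 regulatory and 1 listed gene were higher. Adding the block to that correction left 27 subunit genes lower and 1 higher in the first comparison, and 0 subunit and 0 listed genes called with palmitate. Leaving out 1 library gave 0 to 3 core, 0 to 3 regulatory and 0 to 4 listed genes higher with palmitate, the upper ends without replicate 3 of 3D with palmitate. Library size, RLE scaling, a minimum of 10 counts, the 2 groups alone, the Rn45s covariate and DESeq2 each gave 29 subunit genes lower and 1 higher in the first comparison and 0 with palmitate. In the first comparison they called 54% (DESeq2) to 70.7% (minimum of 10 counts) of genes with an adjusted p, against 68.3% originally. Other settings called 48% (no filter) to 71% (GC and length trends removed), and leaving out 1 library gave 62.5% to 69.3%. Over all genes, 275 were called with palmitate, against 617 with no filter, 77 with the 2 groups alone, 111 with the block, 1029 with the GC and length trends removed, 691 with the block added, 44 with the Rn45s covariate and 71 to 1901 with 1 library left out.

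Some small log2 fold changes turned sign, and the cause was not tested. In 3D with palmitate against 2D with palmitate, with the GC and length trends removed, alone and with the block, Psmd5 was at -0.016 and -0.018, Psme4 at -0.020 and -0.019, Zfand5 at -0.057 and -0.068, and Nfe2l1 at -0.23 and -0.23, while with no filter Nfe2l1 was at -0.0067. With palmitate in 3D, the same 2 settings gave Pomp at -0.0010 and -0.0038, Zfand5 at 0.12 and 0.11, Uba6 at 0.045 and 0.048 and Nfe2l1 at 0.012 and 0.013, and the first gave Psme1 at -0.0076. Pomp was also at -0.017 with library size only, -0.013 with no filter, -0.0029 with at least 10 counts in every library and -0.0019 with the 2 groups alone. With the Rn45s covariate Psma5 was at -0.013 and Nfe2l2 at 0.030. With each library left out in turn, Nfe2l1 ranged from -0.024 to 0.054 in the first comparison. With palmitate the ranges were -0.0013 to 0.069 for Psmd14, -0.029 to 0.091 for Psmc6, -0.049 to 0.057 for Pomp, -0.0094 to 0.18 for Uchl5, -0.022 to 0.11 for Ddi2, -0.046 to 1.76 for Ubb, -0.076 to 0.071 for Rps27a, -0.17 to 0.048 for Nfe2l2, -0.094 to 0.023 for Ubqln2, -0.24 to 0.034 for Uba6 and -0.065 to 0.013 for Nfe2l1.

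The total count limits the precision of the weakest genes, since the smallest library held 6595514 counts and the lowest count of a tested subunit gene was 138. With 3 libraries per condition, differences near the standard errors of 0.05 to 0.13 on the log2 scale could not be told from the spread between libraries, and a missed threshold with palmitate does not show that levels were equal.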
